A study of Mus musculus with 6 samples.

Results

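Transcripts of mast cells, basophils and eosinophils were followed through 30 genes chosen by symbol for their known expression in these 3 lineages. The gene count table has 24421 rows, and all 30 had a row. Earlier results of these data were known when the genes were chosen. The RNA came from LK cells, bone marrow cells that lack lineage markers and carry the receptor c-Kit, a gate that holds stem cells and early progenitors. The mice were C57BL/6 animals aged 8 to 12 weeks, either wild type or littermates with a mutant ASXL1 knock-in named ASXL1-MT-KI, and each genotype gave 3 libraries. ASXL1 is a chromatin regulator mutated in myeloid neoplasms. The design text calls the 3 experiments per genotype independent. The sources used here do not state the promoter of the knock-in allele, any Cre line or how many animals made up a library.

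Mast cells, basophils and eosinophils arise in the marrow from granulocyte progenitors that share the transcription factors GATA1 and GATA2. Basophils and mast cells bind IgE through a high-affinity receptor and release histamine, proteases and leukotrienes from or beside their granules when it is crosslinked. Eosinophils store toxic cationic proteins, among them major basic protein, eosinophil peroxidase and the ribonucleases of the Ear family. Basophils and eosinophils finish in the marrow, whereas most mast cells mature in tissues. Mature granulocytes carry lineage markers, and mature mast cells keep c-Kit.

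Libraries held 40462168 to 47579480 counts. Values are TMM-scaled CPM (counts scaled to a common library size), given in the order of replicate numbers 1, 2 and 3, and tests are edgeR quasi-likelihood tests over 13548 genes, with Benjamini-Hochberg adjustment and a threshold of 0.05. Asxl1 had 176.0, 170.0 and 165.1 CPM in wild type, against 323.5, 326.6 and 310.2 CPM in the knock-in libraries, and rose 1.88-fold (adjusted p = 9.7e-06); the counts do not separate the knock-in allele from the endogenous gene. Kit, which defines the gate, stood at 406.4 ± 41.0 and 382.8 ± 11.7 CPM (SD, n = 3 each; adjusted p = 0.446). The number 3 libraries of both genotypes stood apart from numbers 1 and 2: of 10 erythroid markers, 9 were lowest in number 3 in both genotypes, and their summed level was 1412 CPM in wild type 3 against 2161 and 2339, and 2010 CPM in ASXL1-MT-KI 3 against 2598 and 2770. The lineage genes are therefore given by library.

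In wild type cells the lineage genes ran from abundant granule components to transcripts at the detection limit. Levels of different genes were compared as CPM per kb of the longest coding transcript. Srgn, the core protein of granule proteoglycans, had the highest level at 535.7 ± 46.4 CPM per kb (SD, n = 3), but it is also made by other blood cells. Prg2, which encodes major basic protein, followed at 305.6 ± 26.7. The next were Fcer1g, the signalling chain shared by several Fc receptors, at 73.1 ± 4.59 CPM per kb, and Hdc, the enzyme that makes histamine, at 59.2 ± 7.16. The basophil proteases Mcpt8 and Prss34, at 49.0 ± 7.21 and 48 ± 12.4 CPM per kb, and the mast cell and basophil protease Cpa3, at 40.1 ± 7.66, did not differ beyond their spread, and the eosinophil peroxidase gene Epx lay near them at 34.0 ± 3.23. In ASXL1-MT-KI cells the first 8 genes kept this order, with Prg2 at 162.5 ± 83.6, Cpa3 at 22.6 ± 6.28 and Epx at 15.5 ± 7.38 CPM per kb.

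Several proteases of mature tissue mast cells were near 0. Mcpt4 had 5 counts over all 6 libraries, Tpsb2 had 6 and Tpsab1 had 5, and Cma1, which encodes the chymase of connective tissue mast cells, had 56. Mcpt1, Mcpt9, Cma2 and the mast cell receptor gene Mrgprb2 were at 0 throughout. The most abundant lineage genes were Srgn, Prg2, Fcer1g and Hdc, with the basophil proteases and Epx after them. Eosinophil genes also had members near or at 0: Ear2 had 46 counts and Ear6 48 over all libraries, and Ear3, Ear4, Ear7, Ear12 and Ear14 had none.

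The stretches before the start sites of 6 of these genes are shown because 4 of them hold the motif most often found before these genes and the other 2 show how alike the Ear1 and Ear2 starts are. For 27 of the 30 genes a RefSeq window on GRCm38.p6 was found, and the 250 bases before the start were searched on both strands for letters bound by factors of these lineages. The GATA motif, TGATAA or AGATAA, was present for 12 of the 27, against 18.8% of all 27025 genes with a window. Printed 5′ to 3′ on the gene's strand, each run gives the 150 bases before the start, with GATA letters (on either strand) in capitals for the first 4 and the C/EBP motif TTGCNNAA in capitals for the Ear genes:
Ms4a2, chr19:11623720-11623869, minus strand: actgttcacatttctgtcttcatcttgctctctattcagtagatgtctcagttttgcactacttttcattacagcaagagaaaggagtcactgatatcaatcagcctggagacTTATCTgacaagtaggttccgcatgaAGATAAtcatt
Cpa3, chr3:20242182-20242331, minus strand: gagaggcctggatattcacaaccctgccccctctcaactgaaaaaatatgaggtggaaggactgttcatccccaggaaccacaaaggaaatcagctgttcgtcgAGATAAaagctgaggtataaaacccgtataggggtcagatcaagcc
Prss34, chr17:25298244-25298393, plus strand: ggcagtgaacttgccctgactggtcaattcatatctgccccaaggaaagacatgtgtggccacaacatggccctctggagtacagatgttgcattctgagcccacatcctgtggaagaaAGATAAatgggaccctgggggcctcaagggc
Prg3, chr2:84988065-84988214, plus strand: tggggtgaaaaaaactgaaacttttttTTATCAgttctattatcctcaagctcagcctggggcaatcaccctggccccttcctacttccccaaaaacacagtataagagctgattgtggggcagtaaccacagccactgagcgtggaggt
Ear1, chr14:43819640-43819789, minus strand: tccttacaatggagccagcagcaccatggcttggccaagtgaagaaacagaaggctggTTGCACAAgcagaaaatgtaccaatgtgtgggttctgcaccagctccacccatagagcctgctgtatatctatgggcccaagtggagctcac
Ear2, chr14:44102504-44102653, plus strand: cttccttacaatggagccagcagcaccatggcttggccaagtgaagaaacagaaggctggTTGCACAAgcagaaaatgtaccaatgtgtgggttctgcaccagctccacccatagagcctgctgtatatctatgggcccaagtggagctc
The GATA letters began 46 bases before the start in Cpa3, 31 in Prss34, 123 in Prg3, and within the printed stretch 37 and 11 in Ms4a2. No GATA match lay in the 250 bases of Ear1, Ear2, Ear6, Epx or Mcpt8, which says only that these letters are not in those windows. The C/EBP letters were found for 8 of the 27 genes (10.8% of all genes), those of MITF, CACATG, for 7 (13.8%), those of RUNX, TGTGGT, for 9 (15.9%), those of PU.1, GAGGAA, for 6 (25.9%) and the STAT5 letters TTCNNNGAA for 0 (8.13%). A window can hold several of these motifs, and the counts describe letters and were not tested.

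Across the 30 genes, 25 had enough counts for the test and 5 did not (Mcpt4, Cma1, Tpsb2, Tpsab1 and Il13). In ASXL1-MT-KI cells 2 of the 25, Ear1 and Ear6, were lower past the threshold (8.00%, where 7.69% of all genes tested were lower). None was higher in edgeR, where 8.29% of all genes were, and 0 were higher at an unadjusted p under 0.05, in DESeq2 or in limma-voom. The share of lower calls was thus near that of all genes. Ear2 and Ear6 passed the count filter only through their wild type libraries, so their direction was fixed by their entry; without them 1 of 23 was lower (4.35%). The median log2 fold change of the 25 was -0.24, beside 0.00 for all genes, and 19 of them had a negative estimate (17 with scaling to total counts). The levels of 7 of the 25 did not overlap between genotypes and were lower in ASXL1-MT-KI (28.0%, against 17.2% of all genes), or 5 of 23 (21.7%) without Ear2 and Ear6. With the replicate number as a block 7 were lower (13.8% of all genes). In limma-voom 6 were lower, beside 1038 of all genes, and in DESeq2 4, beside 1169. With numbers 1 and 2 only, 4 were lower and 0 higher, where 8.21% of all genes were lower and 9.61% higher. Each of these counts holds Ear6, and those of the block and limma-voom also hold Ear2. Without ASXL1-MT-KI replicate 3, 7 of 26 were lower, beside 882 of all genes. Of these 7, Ear1 was also in the first count, and Il13 entered only through its wild type counts. Without wild type replicate 1 Ear1 alone was lower, beside 594 of all genes.

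**Figure D1:**
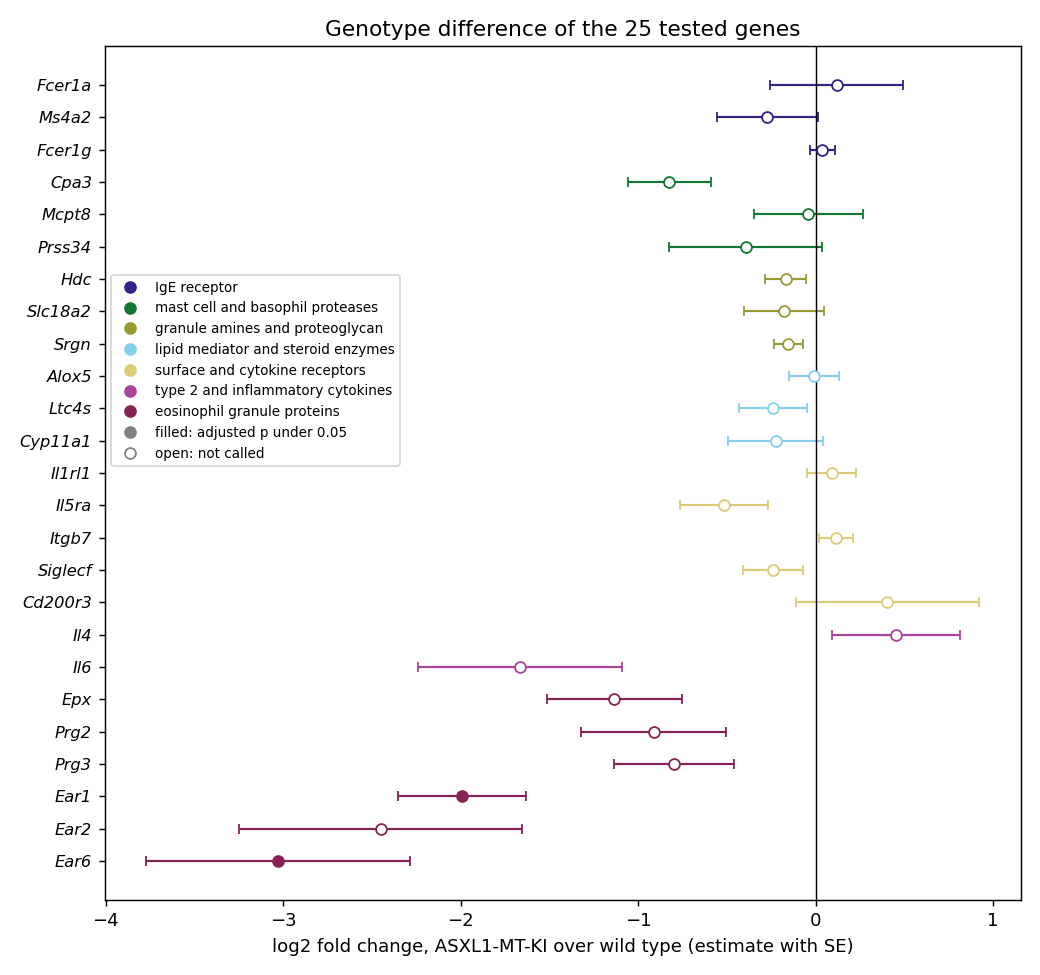
Log2 fold changes (x axis, ASXL1-MT-KI over wild type, estimate with SE from edgeR) of the 25 tested genes, in rows coloured by role; filled points passed an adjusted p of 0.05. Ear2 and Ear6 lie at -2.45 and -3.03, but entered the test only through their wild type counts, so their direction is no finding. The other 4 eosinophil granule genes lie between -1.99 and -0.80. Cpa3 lies at -0.82 and Il6 at -1.67, while the other 17 genes lie between -0.52 and 0.45.

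The 4 eosinophil granule genes that passed the filter through both genotypes (Prg2, Prg3, Epx and Ear1) had negative estimates with a median log2 fold change of -1.02. Of these 4, Ear1 was called lower (25%, against 7.69% of all genes tested). For 3 of them the levels did not overlap and were lower in ASXL1-MT-KI (75%, against 17.2% of all genes). Ear2 and Ear6 are given by their counts below. The summed level of all 6 was 392.7, 366.5 and 329.1 CPM in wild type and 164.6, 103.9 and 286.9 CPM in ASXL1-MT-KI. All 3 knock-in sums lay below wild type, with number 2 the lowest and number 3 nearest. Most of each sum came from Prg2, at 279.5 of 392.7 CPM in wild type 1 and 213.4 of 286.9 CPM in ASXL1-MT-KI 3. Prg2 itself was not called by edgeR (adjusted p = 0.223). In bulk RNA, fewer eosinophil progenitors and less of these transcripts per cell cannot be told apart.

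Ear1 encodes an eosinophil-associated ribonuclease and lies on chromosome 14 from 43818765 to 43875517 (GENCODE M21, GRCm38). The RefSeq start used above lies inside this model. Ear1 had 4.21, 4.62 and 3.20 CPM in wild type and only 1.19, 0.42 and 1.42 CPM with the knock-in. All 3 ASXL1-MT-KI values lay below all wild type values. By edgeR it fell by 1.99 ± 0.36 (SE) on the log2 scale, a level 3.98-fold lower (adjusted p = 0.00846). It held in 14 of 15 alternatives and did not pass with the replicate number as a block (adjusted p = 0.0549); the difference within numbers ran from -1.15 in number 3 to -3.33 in number 2 on the log2 scale. Ear6, another ribonuclease of the family (chromosome 14, 51853699 to 51854643), had 11, 23 and 9 counts in wild type and 0, 4 and 1 in ASXL1-MT-KI, without overlap (log2 fold change -3.03 ± 0.74, adjusted p = 0.0231). Ear2 had 12, 14 and 13 counts against 7, 0 and 0, also without overlap (-2.45 ± 0.80, adjusted p = 0.0680; 0.0366 with the block). As both entered the test only through their wild type counts, the direction of these estimates is no finding. Ear6 no longer passed when knock-in library 1 (adjusted p = 0.0636) or 3 (0.0582) was left out, and the gene was not tested when wild type 1 or 2 was left out or with the stricter filter.

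The Ear genes are close copies, and the sources used here do not state how reads matching several of them were counted. The transcripts of Ear1 and Ear2 were identical at 96.4% of aligned positions, and those of Ear1 and Ear6 at 88.2%. In the gene models, exons of Ear1 overlap those of the pseudogene Ear-ps9 on the same strand, and how reads there were counted is not stated. Of the 124-base windows of the Ear1 transcript, the length of 1 read, 14.2% also occur in Ear-ps9. For Ear2, 10.4% of such windows occur in Ear10. None of these windows was shared between Ear1, Ear2 and Ear6 themselves. The 250 bases before the start were 97.6% identical between Ear1 and Ear2, as the 2 printed runs show, against 78.2% between Ear1 and Ear6. The levels of Ear1 and Ear2 are uncertain to the extent that such reads were counted for either.

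Prg2, Prg3 and Epx are eosinophil granule genes outside the Ear family, and read-length windows of all 3 were unique. Prg2 (chromosome 2, 84980461 to 84983632) had 279.5, 254.0 and 234.9 CPM in wild type against 118.5, 76.7 and 213.4 CPM with the knock-in. ASXL1-MT-KI 3 was the highest of its genotype and fell just short of the lowest wild type library. The log2 fold change was -0.91 ± 0.41 (adjusted p = 0.223, and 0.0408 by limma-voom). Epx (chromosome 11, 87864000 to 87875536) followed the same order, at 97.0, 95.8 and 81.4 CPM against 39.2, 23.3 and 62.7 CPM, without overlap, and its log2 fold change was -1.13 ± 0.38 (adjusted p = 0.124 by edgeR, 0.0332 by DESeq2 and 0.0152 by limma-voom). Prg3, a neighbour of Prg2 that encodes a related protein, was at 11.6, 11.3 and 9.07 CPM against 5.61, 3.50 and 9.31 CPM. Here ASXL1-MT-KI 3 lay inside the wild type range (log2 fold change -0.80 ± 0.34, adjusted p = 0.174). Without ASXL1-MT-KI replicate 3, all 3 passed, with log2 fold changes of -1.40 for Prg2 (adjusted p = 0.0240), -1.55 for Epx (0.0339) and -1.23 for Prg3 (0.00716). With numbers 1 and 2 only, Prg3 alone of the 3 passed (adjusted p = 0.00445, against 0.103 for Prg2 and 0.101 for Epx).

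**Figure D2:**
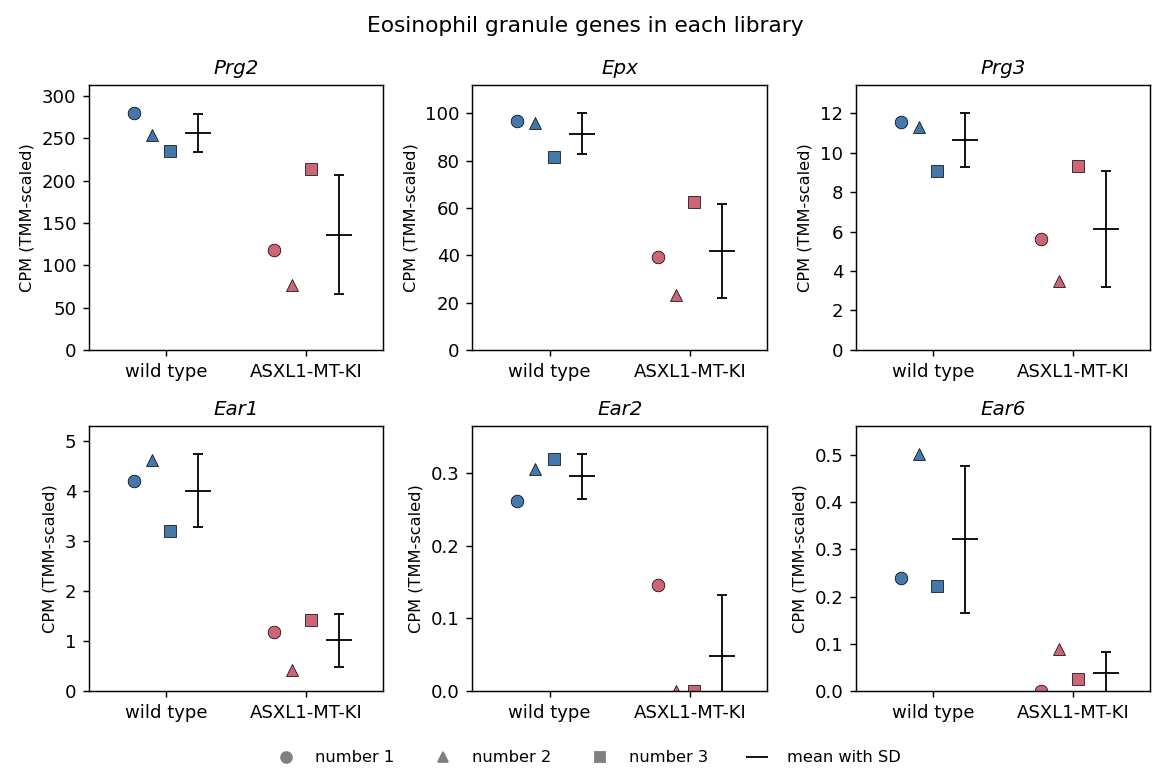
TMM-scaled CPM (y axis, from 0 in each panel) of the 6 eosinophil granule genes in wild type (blue) and ASXL1-MT-KI (red) libraries, with circles, triangles and squares for numbers 1, 2 and 3 and the mean with SD beside them. For Prg2, Epx and Prg3 the ASXL1-MT-KI square stands above the other ASXL1-MT-KI points and close to the wild type points, at 213.4 CPM for Prg2.

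Cpa3 was lower in ASXL1-MT-KI in each replicate number, although the test without a block did not call it. It encodes the carboxypeptidase of mast cell granules, made also by basophils and their progenitors, and lies on chromosome 3 from 20215620 to 20242181. Levels were 54.3, 49.3 and 70.5 CPM in wild type and 25.7, 29.7 and 43.1 CPM with the knock-in. The groups did not overlap, and number 3 was the highest in both. The log2 fold change was -0.82 ± 0.23 (adjusted p = 0.070). Within numbers 1, 2 and 3 the differences were -1.08, -0.73 and -0.71 on the log2 scale, and with the block the gene was lower past the threshold (adjusted p = 5.0e-06). It also passed in DESeq2 (adjusted p = 0.0227), in limma-voom (0.0166), with numbers 1 and 2 only (0.000158) and without ASXL1-MT-KI replicate 3 (0.00929). It did not pass in the fits lacking 1 of the other 5 libraries (highest adjusted p 0.206, lacking knock-in 2), nor with no filter (0.141). Nor did Cpa3 pass with scaling by DESeq2's size factors or total counts, or with CPM of at least 1 in 3 libraries.

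The basophil proteases did not separate the genotypes. Mcpt8, which encodes a serine protease restricted to basophils, had 46.5, 34.5 and 41.9 CPM in wild type against 29.6, 31.5 and 58.5 CPM with the knock-in. The ASXL1-MT-KI group held both the lowest and the highest value (log2 fold change -0.04 ± 0.31, adjusted p = 0.947; 0.01 with total counts). Without ASXL1-MT-KI replicate 3 it was lower (-0.43, adjusted p = 0.0445). Prss34, a second basophil protease gene, was at 75.7, 47.4 and 52.6 CPM against 28.1, 34.6 and 71.2 CPM, with ASXL1-MT-KI 3 inside the wild type range and the other 2 below it (log2 fold change -0.39 ± 0.43, adjusted p = 0.608). Among the untested proteases, Cma1 had 8, 3 and 10 counts in wild type and 6, 9 and 20 in ASXL1-MT-KI, a ratio of summed counts of 1.64 (95% interval 0.93 to 2.96). Mcpt4 had 2 counts against 3 (ratio 1.47, 0.17 to 17.7) and Tpsb2 had 3 against 3 (ratio 0.98, 0.13 to 7.34). Tpsab1 had 5 against 0, at least 1.70-fold lower when 3 counts over the knock-in group are taken as the floor, but the 95% interval of the wild type to knock-in ratio reached down to 0.93, so a difference was not detectable at this depth. These intervals and the floor cover counting error only.

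**Figure D3:**
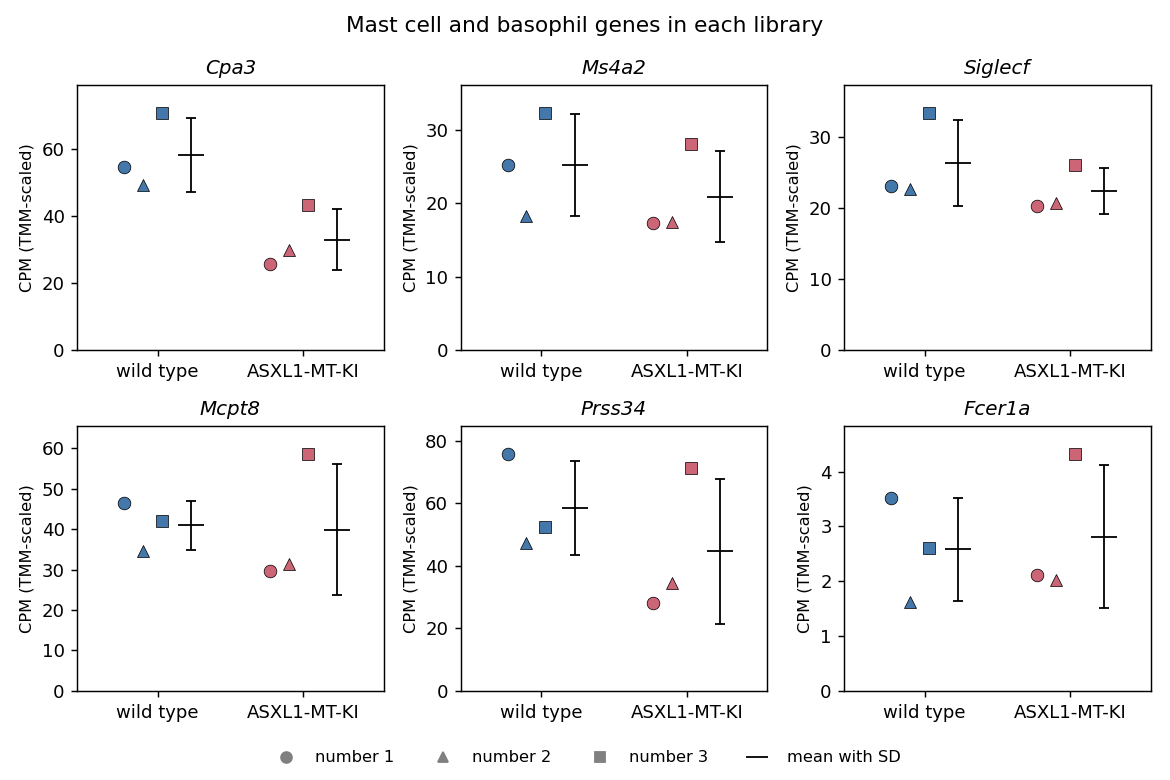
TMM-scaled CPM (y axis, from 0 in each panel) of Cpa3, Ms4a2, Siglecf, Mcpt8, Prss34 and Fcer1a in wild type (blue) and ASXL1-MT-KI (red) libraries, with circles, triangles and squares for numbers 1, 2 and 3 and the mean with SD. In the upper row the squares are the highest of both genotypes; in the lower row the square is the highest in ASXL1-MT-KI only, at 58.5 CPM for Mcpt8.

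None of the 3 chains of the IgE receptor was called by edgeR, and 0 reached an unadjusted p under 0.05 or passed in DESeq2 or limma-voom. Fcer1a, the alpha chain that binds IgE, had 3.51, 1.61 and 2.61 CPM in wild type against 2.11, 2.01 and 4.32 CPM with the knock-in, with overlapping ranges (log2 fold change 0.12 ± 0.37, adjusted p = 0.872). Ms4a2, the beta chain, was at 25.2, 18.3 and 32.3 CPM against 17.3, 17.4 and 28.1 CPM (-0.27 ± 0.28, adjusted p = 0.580). It was lower within every number, by 0.07 to 0.54 on the log2 scale, and passed with the block (adjusted p = 0.0280). Fcer1g, the shared gamma chain, varied little, at 46.3 to 51.9 CPM in wild type and 47.2 to 54.0 CPM in ASXL1-MT-KI (0.04 ± 0.07, adjusted p = 0.779).

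Genes for stored mediators had small negative estimates and were not called. Hdc had 138.7, 126.0 and 159.9 CPM in wild type against 123.5, 109.9 and 144.1 CPM with the knock-in (-0.17 ± 0.12, adjusted p = 0.376). Srgn was at 964.1, 833.0 and 978.6 CPM against 864.9, 741.3 and 887.7 CPM (-0.15 ± 0.08, adjusted p = 0.247). Each ASXL1-MT-KI library lay below the wild type library of its number, by 0.15 to 0.20 for Hdc and by 0.14 to 0.17 for Srgn on the log2 scale, and both passed with the block (adjusted p = 0.00426 and 0.00504). Slc18a2, the transporter that loads amines into granules, was at 34.3, 36.4 and 56.1 CPM against 33.3, 33.7 and 44.8 CPM (-0.18 ± 0.23, adjusted p = 0.651). Its exons overlap those of Gm29261 on the other strand, and counts without strand cannot separate the pair.

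Among the enzymes of lipid mediators and steroids 0 of 3 passed in edgeR (0 also at an unadjusted p under 0.05, in DESeq2, in limma-voom and with the block). Alox5, which starts leukotriene synthesis, had 13.6, 12.7 and 17.3 CPM in wild type and 13.2, 13.3 and 16.9 CPM in ASXL1-MT-KI (difference -0.01 ± 0.14 on the log2 scale, adjusted p = 0.975). Ltc4s, the leukotriene C4 synthase, was at 2.004, 1.70 and 2.44 CPM against 1.63, 1.59 and 1.98 CPM (adjusted p = 0.445). Cyp11a1, a steroid-making enzyme that basophils and mast cells also express, was at 3.29, 2.64 and 4.11 CPM against 2.29, 2.19 and 4.12 CPM (adjusted p = 0.621). All 3 had overlapping ranges and were highest in number 3 of both genotypes. Ltc4s and Cyp11a1 share exon positions with Gm26542 and Gm17322.

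Of 5 surface receptors 0 were called by edgeR (0 also by limma-voom, by DESeq2 and at an unadjusted p under 0.05). Il1rl1, the receptor for IL-33, was at 25.8, 36.3 and 24.9 CPM in wild type and 28.9, 33.2 and 30.4 CPM in ASXL1-MT-KI (log2 fold change 0.09 ± 0.14, adjusted p = 0.724). Il5ra, the IL-5 receptor chain of the eosinophil lineage, was at 1.16, 1.27 and 1.40 CPM against 0.88, 0.64 and 1.16 CPM, with ASXL1-MT-KI 3 just above the lowest wild type library (-0.52 ± 0.25, adjusted p = 0.192). Siglecf, a lectin of eosinophils, was at 23.0, 22.7 and 33.3 CPM against 20.2, 20.7 and 26.1 CPM (-0.24 ± 0.17, adjusted p = 0.394; lower with the block, adjusted p = 0.0195). Itgb7, an integrin chain used by mast cell progenitors, was at 30.9, 32.9 and 36.3 CPM against 34.2, 32.9 and 41.2 CPM, with overlapping ranges (adjusted p = 0.469). Cd200r3, a receptor of basophils and mast cells, was at 0.70, 0.22 and 0.52 CPM against 0.50, 0.33 and 1.09 CPM, with the lowest value in wild type 2 and the highest in ASXL1-MT-KI 3 (adjusted p = 0.650).

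Cytokine transcripts were scarce. Il6 had 5.19, 2.07 and 2.54 CPM in wild type against 1, 0.38 and 1.74 CPM with the knock-in. The ranges did not overlap, but wild type 1 stood far above wild type 2 and 3. The gene was not called (log2 fold change -1.67 ± 0.58, adjusted p = 0.110) and passed in 0 of 15 alternatives (adjusted p from 0.0506 to 0.269). Il13 had 27, 9 and 14 counts against 4, 1 and 4. Its summed counts were 5.65-fold lower in ASXL1-MT-KI (95% counting interval 2.75 to 13.1). It fell below the count filter, and where it was tested it passed with no filter (adjusted p = 0.0108), when wild type 2 (0.0162) or knock-in 3 (0.0364) was left out, and not when knock-in 1 (0.0567) or 2 (0.0830) was. Il13 was over the count cut in 2 wild type and 0 knock-in libraries. In the fits with a library left out its direction was thus fixed by its entry and is no finding. Il4 had 13, 8 and 7 counts against 14, 12 and 13 (log2 fold change 0.45 ± 0.36, adjusted p = 0.440).

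The number 3 libraries differed in 2 ways among these genes. That number 3 stands apart was known from an earlier analysis of these counts. The shares below describe this and are no separate finding. Number 3 was the highest library of both genotypes for 11 of the 25 tested genes (44.0%, where 23.4% of all genes showed this) and the lowest of both for 0 (23.1% of all genes). The 11 were Cpa3, Ms4a2, Hdc, Slc18a2, Srgn, Alox5, Ltc4s, Cyp11a1, Il5ra, Itgb7 and Siglecf. The median difference of number 3 from the mean of numbers 1 and 2 was 0.13 in wild type and 0.60 in ASXL1-MT-KI on the log2 scale, beside 0.01 and 0.00 for all genes, and the wild type value was 0.022 when wild type 2 was left out and 0.23 when wild type 1 was. Ms4a2 was higher in number 3 by 0.59 and 0.69, Siglecf by 0.54 and 0.35 and Slc18a2 by 0.67 and 0.42.

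A second set of genes was high in ASXL1-MT-KI 3 and low, or less high, in wild type 3. Prg2 was lower in wild type 3 than in wild type 1 and 2, by 0.18, and higher in ASXL1-MT-KI 3 than in ASXL1-MT-KI 1 and 2, by 1.16 on the log2 scale. Epx (-0.24 and 1.053), Prg3 (-0.33 and 1.06), Ear1 (-0.46 and 0.95) and Il6 (-0.37 and 1.42) had the same signs. The other eosinophil granule genes did not: Ear2 differed by 0.16 and -1.04, and Ear6 by -0.56 and -0.17. The basophil genes Prss34 (-0.19 and 1.19), Mcpt8 (0.06 and 0.94), Fcer1a (0.13 and 1.052) and Cd200r3 (0.35 and 1.32) were also high in ASXL1-MT-KI 3 with little or a smaller difference in wild type 3. Each such difference rests on 1 library per genotype and has no test. The genotype difference of Prss34 was -1.43 within number 1, -0.45 within number 2 and 0.44 within number 3, and that of Prg2 was -1.24, -1.73 and -0.14. The erythroid markers, lower in number 3 of both genotypes, had median differences of -0.74 in wild type and -0.47 in ASXL1-MT-KI, and the neutrophil markers 0.31 and 0.05; their part in these differences was not tested.

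**Figure D4:**
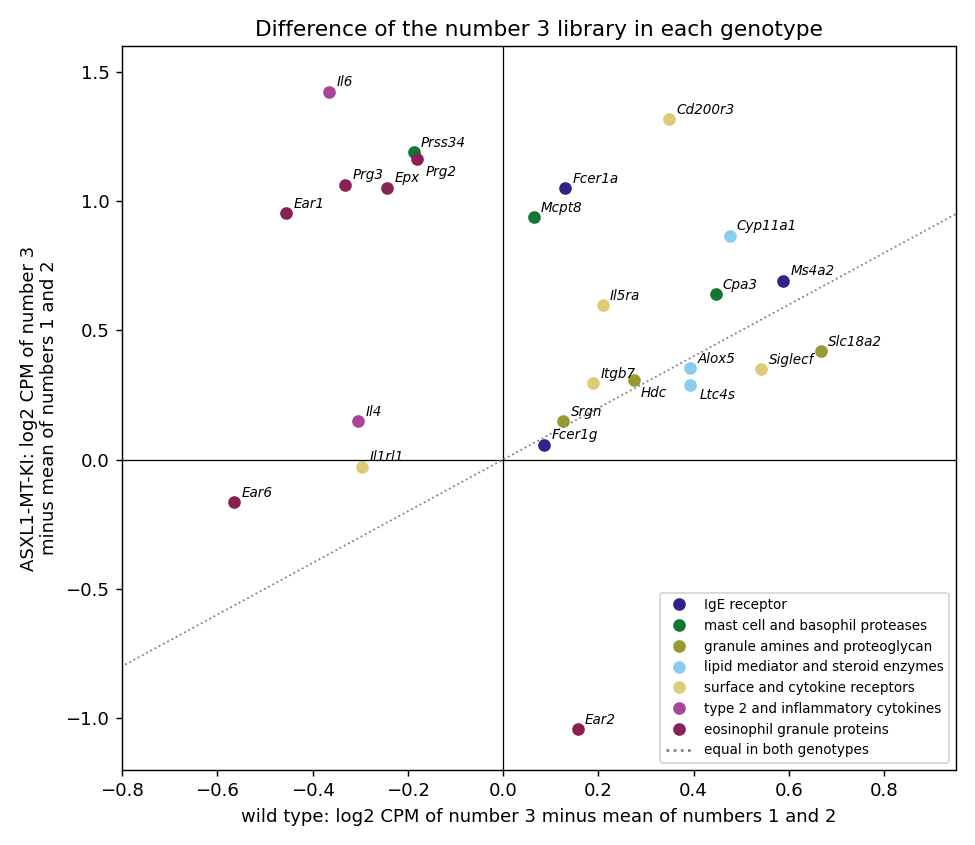
Log2 CPM of library number 3 minus the mean of numbers 1 and 2, in wild type (x axis) and ASXL1-MT-KI (y axis), for the 25 tested genes coloured by role; the dotted line marks equal differences. Ms4a2, Cpa3, Hdc and Srgn lie near the line, while Prg2, Epx, Prg3, Ear1 and Il6 lie to the left of 0 on the x axis and between 0.95 and 1.42 on the y axis.

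Lists of genes that act with these products were read against the same all-gene shares (8.29% higher and 7.69% lower, or 16.7% and 13.8% with the block). In bulk RNA of the gate, changes in these lists cannot be assigned to cells of the 3 lineages. Of 31 tested genes of IgE receptor signalling, 1 rose (3.23%) and 6 fell (19.4%; median log2 fold change -0.12), with 3 and 16 calls under the block, 0 and 2 when wild type 1 was left out, and 0 and 1 when knock-in 2 was. The gene that rose, named after its values were seen, was Rab27a, a regulator of granule release, by 0.21 on the log2 scale; its call was lost when wild type 1 or 2 or any knock-in library was left out. The adaptor gene Gab2 fell from 69.3 ± 3.56 to 56.3 ± 3.13 CPM (adjusted p = 0.0112, and 0.0550 when wild type 1 was left out). The phospholipase gene Plcg2 fell from 245.8 ± 15.4 to 203.5 ± 8.46 CPM (adjusted p = 0.0121), Lat from 16.9 ± 1.49 to 12.1 ± 1.37 CPM (0.0137) and the kinase gene Fyn from 43.0 ± 3.10 to 34.2 ± 2.02 CPM (0.0147). The last 3 no longer passed when knock-in 2 was left out, with adjusted p of 0.0527, 0.0568 and 0.0596, and Fyn also not when wild type 1 was (0.0676). The others that fell, named after their values were seen, were Dok2 by 0.50 and Inpp5d by 0.17 on the log2 scale (adjusted p = 0.0218 and 0.0259). Their calls were lost in 4 and 6 of 15 alternatives. Of 16 tested growth and cytokine receptors, 4 fell (25%), with all 15 alternatives calling these 4: Cxcr4 by 0.54, the TGF-beta receptor gene Tgfbr2 by 0.64, the TSLP receptor gene Crlf2 by 0.50 and Il4ra by 0.38 on the log2 scale. By edgeR 0 rose, as by limma-voom, by DESeq2 and at an unadjusted p under 0.05, and the list median was -0.18. Il3ra and Csf2rb, genes for chains of the IL-3 receptor, were not called (adjusted p = 0.816 and 0.361).

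Among 23 transcription factors of the 3 lineages, 5 fell (21.7%) and 0 rose by edgeR, with a median of -0.03. There were 4 with a positive estimate and an unadjusted p under 0.05, and DESeq2 called 2 rises, limma-voom 1, the block 5 and numbers 1 and 2 only 2. Bhlhe40, which basophils and other activated cells express, fell from 105.4 ± 27.7 to 32.9 ± 4.78 CPM (adjusted p = 0.00628, and 0.0509 with numbers 1 and 2 only). Runx1 fell by 0.35, Cebpb by 0.38 and Trib1 by 0.48 on the log2 scale, each also in all 15 alternatives. The other, Id1, was named after its values were seen and fell by 0.83 (adjusted p = 0.0357, not passing in 6 of 15 alternatives). The GATA factor gene Gata2 was at 184.5 and 180.9 CPM (adjusted p = 0.874), and Mitf, the mast cell regulator, at 12.8 and 13.3 CPM (0.767). Gata1 was at 64.9, 73.3 and 46.9 CPM in wild type and 79.0, 80.0 and 61.8 CPM in ASXL1-MT-KI, lowest in number 3 of both, and passed with the block (adjusted p = 0.00169, against 0.419 without it). Gata1, Gata2, Mitf, Il3ra and Csf2rb were chosen after their values were seen, for their known role in these lineages.

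Of 17 tested further mast cell and basophil genes, 1 rose (5.88%) and 5 fell (29.4%; median -0.09). The paired immune receptor genes Lilr4b and Lilrb4a fell by 1.44 and 0.94, the activation marker gene Cd69 by 0.78 and Cd34 by 0.31 on the log2 scale, calls that held in all 15 alternatives. All 4 are also expressed by other progenitors or leukocytes, as is Itga2b, named after its values were seen, which fell by 0.40 (adjusted p = 0.00665, and 0.0537 with numbers 1 and 2 only). The tetraspanin gene Cd63 rose by 0.36 (adjusted p = 0.0200; 0.0906, 0.0644 and 0.064 when wild type 1, wild type 2 or knock-in 1 was left out); it too was named after its values were seen. Of 9 further eosinophil genes tested 0 were called by edgeR and the median was -0.03. With a positive estimate, 2 had an unadjusted p under 0.05, DESeq2 called 2, limma-voom 1 and the block 3. Ccr3, the eotaxin receptor gene of eosinophils and basophils, was named after its values were seen: it had 2, 1 and 5 counts in wild type and 8, 9 and 32 in ASXL1-MT-KI, highest in number 3 of both, and was not tested.

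In leukotriene and prostaglandin synthesis 2 of 19 rose and 2 fell (median -0.04), 10.5% in each direction and so near the shares of all genes. Ptgs2, the inducible prostaglandin synthase, fell from 50.3 ± 2.48 to 26.6 ± 5.20 CPM (adjusted p = 0.00267, and 0.0822 with numbers 1 and 2 only), and the phospholipase gene Pla2g4a from 47.0 ± 3.90 to 35.4 ± 3.69 CPM (0.0138; 0.0578 and 0.0532 when wild type 1 or knock-in 2 was left out). Mgst2 and Mgst3, microsomal transferases, rose by 0.43 and 0.59 on the log2 scale, of which Mgst3 did not pass when either of those 2 libraries was left out (0.0517 and 0.0761). In heparin chain synthesis 5 of 18 rose (27.8%) and 0 fell by edgeR, and 0 fell at an unadjusted p under 0.05, in DESeq2 or in limma-voom (median 0.04). Xylt2, which attaches the first sugar to the core protein, rose from 14.03 ± 0.96 to 18.9 ± 0.64 CPM (adjusted p = 0.00599), and B3galt6, Glce and Extl3 rose by 0.34, 0.36 and 0.27. The other was Hs6st2, named after its values were seen, at 0.66 ± 0.12 and 1.16 ± 0.14 CPM (adjusted p = 0.0431); its call was lost in 8 of 15 alternatives, among them DESeq2 (0.0933), numbers 1 and 2 only (0.0785) and each library left out (0.0513 to 0.151). When wild type 1, knock-in 1 or knock-in 2 was left out, the 5 rises became 1, and Xylt2 passed in all 15 alternatives.

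Markers of other cell types in the gate were summed to see what else differed between the libraries. Neutrophil markers summed to 18370 to 20300 CPM in wild type and 18850 to 19970 CPM in ASXL1-MT-KI. Of 11, edgeR called 0, with 0 at an unadjusted p under 0.05, 0 by either other tool (DESeq2, limma-voom) and 4 higher with the block and 2 with numbers 1 and 2 only. Erythroid markers, whose sums are given above, had 1 of 10 higher by edgeR, 10 with the block and 6 with numbers 1 and 2 only. Monocyte and dendritic markers summed to 1233 to 1250 and 1296 to 1439 CPM, with 1 of 8 higher and 2 lower (2 and 1 with numbers 1 and 2 only). B cell markers summed to 21.8 to 25.3 and 21.2 to 24.2 CPM, and 3 of 6 were lower (5 with the block and 5 with numbers 1 and 2 only), with a median of -1.16. Most of the B cell sums came from Cd79b, at 16.2 to 18.9 and 19.0 to 21.1 CPM, which had a positive estimate. Megakaryocyte markers summed to 298.6 to 341.0 and 236.2 to 313.5 CPM, with 2 of 7 lower (1 with numbers 1 and 2 only). Stem cell markers summed to 92.2 to 107.6 and 56.2 to 72.0 CPM, with 2 of 8 higher and 5 lower. T and NK markers summed to 164.7 to 180.9 and 145.5 to 192.6 CPM, with Cd3g at 0. Nkg7 alone gave 163.4 to 179.0 and 143.7 to 190.1 CPM of these sums, so they are in effect the level of 1 gene. The part of these cell types in the differences of the lineage genes was not tested.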

How the data were processed

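The authors deposited raw counts per gene symbol, 24421 rows with 6240 at 0 throughout, for 6 libraries. Per the labels' protocols, 200 ng RNA per library went into a NEB Next Ultra RNA kit, a type that does not mark strand, and reads were 124-base pairs, and per the submitters' processing notes reads were aligned with HISAT2 2.0.4 to mm10. The sources used here do not state the counting tool or its treatment of shared reads. Columns were matched to samples by genotype and number in their names.

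edgeR 4.0.16 in R 4.3.3 was run with filterByExpr (minimum count 10), TMM and robust quasi-likelihood fits on genotype alone, with genes in the table but below the filter given as counts. Standard errors are the estimate over the square root of F, and log2 CPM differences between single libraries used a prior count of 2. Tested on simulated counts of this comparison (13438 genes), the fit recovered 65.2% of genes changed 1.5-fold, 75.8% of those changed 2-fold and 98.5% of those changed 4-fold, with 11 of 168 calls false. Gene models came from GENCODE M21 and promoters from RefSeq on GRCm38.p6, the assembly of mm10. Precision at this depth covers counting error only where an interval is given.

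The alternatives tried were a block on replicate number, scaling by DESeq2's size factors or by total counts, DESeq2 1.42.0, limma-voom (limma 3.58.1), no filter, CPM of at least 1 in 3 libraries, an adjusted p under 0.10, each library left out, and numbers 1 and 2 only. The labels give replicate numbers but no shared litter or day. Across genes, which are not independent, libraries sharing a number deviated together (r of 0.25, 0.16 and 0.39). Wild type 2 and ASXL1-MT-KI 1 also reached 0.16. The main tests used genotype alone, and the numbers were taken as pairs only in the block and in the differences within numbers. The members and lists were chosen with earlier results of these data known. All members were named, and of each related list up to 4 called genes by p. Figures used matplotlib 3.10.9.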

Additional observations from a re-analysis of the deposited data

How the results depend on the processing

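With the replicate number as a block, 7 of the lineage genes were lower and 0 higher, 2256 of all genes were higher and 1876 lower, and 20 and 37 genes of the related lists. The block moved the calls of Ms4a2, Cpa3, Hdc, Srgn, Siglecf and Ear2 past the threshold, and that of Ear1 out of it, and changed no other call among the 25. The lower genes numbered 4 in DESeq2, 6 in limma-voom and 1 with CPM of at least 1 in 3 libraries (where Ear6 was not tested). They numbered 4 at an adjusted p under 0.10 and 4 with numbers 1 and 2 only. Over all genes, the lower calls in these settings were 1169, 1038, 955, 1456 and 1112, in the same order. Ear6 was called in each of these settings where it was tested, and Ear2 in limma-voom and under 0.10. Both genes entered only through their wild type counts. Leaving out 1 library at a time gave 1 to 7 lower genes, 534 to 1216 higher and 587 to 1041 lower calls over all genes, 2 to 8 and 15 to 23 in the related lists, and a median log2 fold change of the tested genes from -0.49 (without ASXL1-MT-KI replicate 3) to -0.073. The median difference of number 3 ran from 0.022 to 0.23 in wild type and from 0.43 to 0.53 in ASXL1-MT-KI when 1 of the other libraries was left out. With scaling to total counts, 67.1% of all calls were rises, against 51.9% in the TMM fit, and the median of all genes moved from 0.00 to 0.05, while the 2 lower lineage genes stayed 2. The cause of these changes was not tested. At these depths, genes without about 10 counts in at least 3 libraries were not tested in the main fit.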
